A study of Mus musculus with 12 samples.

Results

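The presynaptic vesicle release machinery was followed here through 40 genes, chosen by name from 55487 annotated genes as synaptic vesicle proteins, SNARE proteins and their regulators, and scaffolds of the active zone. Their RNA was measured in the whole hippocampus of 6 wildtype (WT) mice and 6 mice lacking upstream stimulatory factor 1 (USF-1 KO), with 1 library per mouse. USF-1 regulates transcription from E-boxes with the sequence CACGTG. Adult mice of 3 to 4 months were littermates from the breeding of heterozygous USF-1 deficient animals on the C57Bl/6JRccHsd background. The KO mice lacked USF-1 in all tissues and throughout development, so that effects of the hippocampus itself and of the rest of the body cannot be told apart. No mouse of either genotype received a treatment that the labels name. The labels give 4 females and 2 males for WT and 2 females and 4 males for USF-1 KO. The authors' legend to the figure on hippocampal expression instead gives 3 males and 3 females of each genotype. The labels were used here. Mice are numbered WT 1 to WT 6 and KO 1 to KO 6, and the numbers do not pair mice of different genotypes. The question put to the 40 genes was whether they differ between the genotypes, and whether they are higher in mice in which the RNA of oligodendrocytes, the myelin-forming cells, is lower.

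Neurons store transmitter in synaptic vesicles, which dock at the active zone of the nerve terminal, are primed for fusion and fuse with the plasma membrane when calcium enters. Fusion is driven by SNARE proteins, of which synaptobrevin sits on the vesicle and syntaxin and SNAP-25 on the plasma membrane, while synaptotagmins sense calcium and complexins, Munc13 and RIM proteins set when and how readily vesicles fuse. In the hippocampus these genes are used by granule cells, pyramidal cells and interneurons, with different members of a family prevailing in different cells and pathways.

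Since USF-1 binds CACGTG, the RefSeq promoter windows of the members on GRCm38.p6, 250 bases before to 50 after each annotated start, were searched for these letters; the motif reads the same on both strands. Windows were matched for 33 of the 40 members. The motif was present for 4 of these genes (12.1%), against 11.2% of the genes tested that had a window and 8.09% of all genes with one. A match describes the letters and no binding. The 4 promoters are shown because they are the only matched members that carry the motif; the 250 bases before the RefSeq start are printed 5′ to 3′ on the strand of the gene, with the motif in capitals. Unc13b, a Munc13 priming factor, has it starting 233 bases before the start, and Nsf 174 bases before. Cplx3 has 2 copies, starting 85 and 55 bases before. For these 3 genes the window adjoins the start of the gene in the files. Sv2b, an SV2 glycoprotein, has the motif 193 bases before the start in 1 of its windows, which belongs to a start inside the gene and not to the gene start in the files.
Unc13b, chr4:43058703-43058952, forward strand: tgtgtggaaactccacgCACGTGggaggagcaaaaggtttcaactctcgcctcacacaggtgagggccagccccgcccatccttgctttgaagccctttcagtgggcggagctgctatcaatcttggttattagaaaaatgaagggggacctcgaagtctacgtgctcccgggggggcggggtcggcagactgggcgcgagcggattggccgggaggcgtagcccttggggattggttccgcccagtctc
Sv2b, chr7:75302610-75302859, reverse strand: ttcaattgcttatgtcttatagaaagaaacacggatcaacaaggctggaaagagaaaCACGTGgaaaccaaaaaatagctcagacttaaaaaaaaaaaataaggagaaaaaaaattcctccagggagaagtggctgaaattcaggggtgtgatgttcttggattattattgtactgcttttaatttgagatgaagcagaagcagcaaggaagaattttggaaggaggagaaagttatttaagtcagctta
Cplx3, chr9:57606282-57606531, reverse strand: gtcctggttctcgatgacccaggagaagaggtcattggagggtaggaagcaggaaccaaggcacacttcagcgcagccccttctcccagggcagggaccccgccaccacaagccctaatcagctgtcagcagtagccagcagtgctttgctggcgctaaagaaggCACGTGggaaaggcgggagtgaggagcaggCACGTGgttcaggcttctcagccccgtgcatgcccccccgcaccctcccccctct
Nsf, chr11:103954057-103954306, reverse strand: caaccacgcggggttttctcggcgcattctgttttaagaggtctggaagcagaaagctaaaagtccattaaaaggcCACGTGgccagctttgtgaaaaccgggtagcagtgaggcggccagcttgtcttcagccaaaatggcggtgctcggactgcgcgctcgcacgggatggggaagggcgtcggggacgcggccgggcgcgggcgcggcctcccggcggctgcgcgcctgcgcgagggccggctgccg

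Each library held 21679622 to 32091173 reads on genes, with no difference between the genotypes beyond the spread of mice (two-sided exact permutation test, p = 0.253). The values are normalised counts, that is, reads on a gene divided by 1 size factor per library, and all 40 genes passed the limit of a mean of at least 10 normalised counts that was set for testing. The member with the fewest reads, Cplx3, still had 53 reads in the library with the lowest count. Usf1, the targeted gene, ranged from 842 to 1583 normalised counts in WT mice and from 117 to 163 in USF-1 KO mice. The value of 842 was that of WT 5, while the other WT mice had at least 1425. The part of this low value in the results of the members was not tested. General neuronal markers summed to between 167956 and 196587 normalised counts in WT mice and to 173195 to 186708 in USF-1 KO mice, so that neuronal RNA was abundant in all 12 libraries. The library of WT 4 stood apart. Its score for oligodendrocyte markers, the mean log2 deviation of 18 genes from their average over the 12 mice, stood at −0.46, whereas the remaining WT mice had 0.31 to 0.68, and its scores for dentate gyrus (−0.74) and thalamus markers (−0.81) were the lowest of the 12 mice. Thalamus markers were highest in WT 1 and KO 1 (scores 0.99 and 1.24), and choroid plexus markers in WT 1 and WT 5 (scores 3.59 and 4.90). The values of several members without WT 4, and of some without the other mice, are given beside their results.

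Levels of the machinery spanned a wide range. Per kilobase of exon, the highest WT means belonged to Cplx2, a complexin that clamps and promotes fusion (7931 normalised counts per kb), Snap25, the plasma membrane SNARE (7857), Vamp2, the main vesicle SNARE of the forebrain (7622), Syp, the vesicle membrane protein synaptophysin (7144), and Slc17a7, the vesicular glutamate transporter VGLUT1 (6687). The first 3 differed from one another by less than the spread of Cplx2 between WT mice, whose coefficient of variation was 7.89%. At the other end stood Syn3, the least abundant synapsin (17.7 normalised counts per kb), Unc13c, a Munc13 priming factor best known from the cerebellum (85.4), Sv2c (86.9) and Cplx3 (87.6). Within families the level per kb differed between members, as for Syn1 (4662), Syn2 (2358) and Syn3, or for Rab3a (5419) and Rab3b (345).

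**Figure D1:**
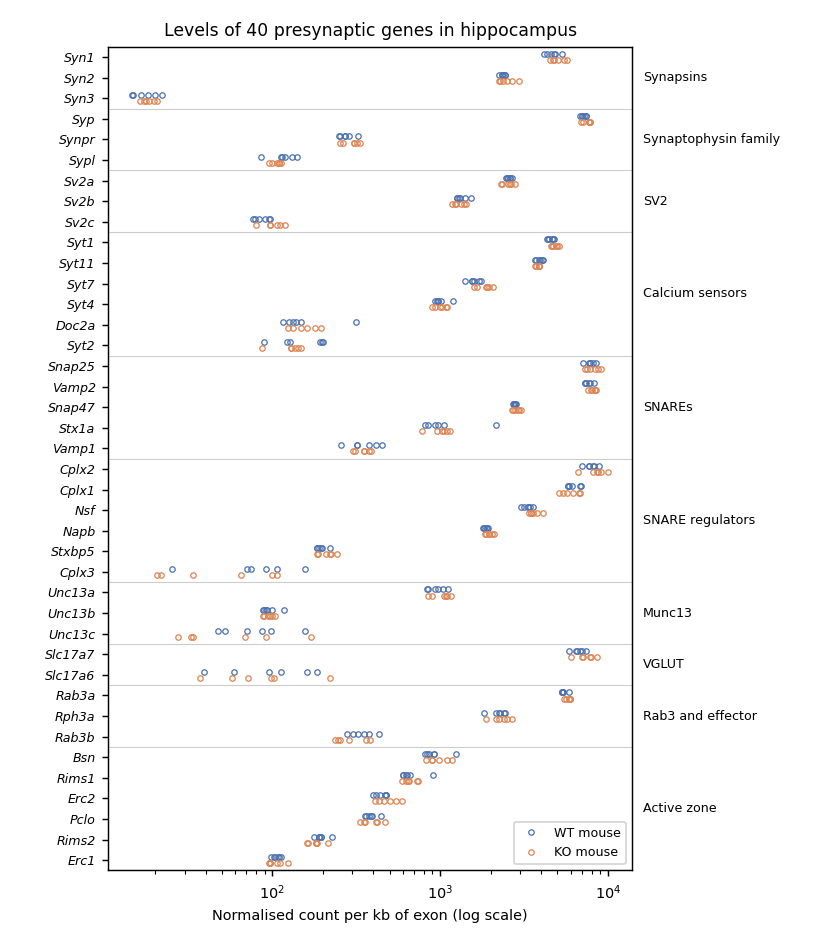
Level of each of the 40 genes in the 6 WT and 6 USF-1 KO mice, as normalised counts per kilobase of exon on a log axis, 1 point per mouse, grouped by role and ordered by the WT mean within a role. The genes run from 7930.6 per kb for Cplx2 to 17.7 per kb for Syn3 in WT mice, and the points of the genotypes overlap for every gene.

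Most members varied little among the mice of a genotype. In WT mice 25 of the 40 had a coefficient of variation under 10%, and the median was 8.27%, against 10.3% for all genes tested; in USF-1 KO mice the medians were 10.5% and 9.71%. The 6 members with a coefficient over 20% in WT mice were Slc17a6 (51.9%), Cplx3 (49.7%), Doc2a (46.7%), Unc13c (46.6%), Stx1a (45.1%) and Syt2 (31.1%). For Stx1a and Doc2a the spread came from 1 mouse, WT 4, as described with these genes.

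No gene of the release machinery passed the test between the genotypes: 0 of the 40 had an adjusted p under 0.05 in limma, against 0.900% of all 18221 genes tested (164 genes). edgeR and DESeq2 on the recovered reads also called 0 of the 40, beside 0.829% and 3.35% of all genes. At an unadjusted p under 0.05, limma gave 4 members, all of them higher in USF-1 KO mice (Syt7, Rab3a, Sv2c and Nsf). Without WT 4 it gave 8, with 6 higher (Syn1, Sv2c, Syt7, Vamp2, Rab3a and Napb) and 2 lower (Sypl and Syt2). The share of all genes at that level was not counted without WT 4, so the 8 have no background to be set against. With all mice edgeR gave 4 and DESeq2 7, where 13.5% of all genes reached that level in limma and 5.92% did so with a higher value in USF-1 KO mice. In 0 of the 40 genes did the values of the genotypes fail to overlap, beside 1.50% of all genes. Of the 40 members, 24 had a positive and 16 a negative log2 estimate for USF-1 KO against WT mice. Their median was 0.042 against −0.00065 for all genes tested. The mean over the members of the same differences was −0.0048, of opposite sign to the median. The log2 difference was under 0.15 in size for 33 members, and the 95% interval lay within ±0.25 for 18. A p that misses the threshold does not show that the genotypes are alike, and for the other 22 members the interval reached past ±0.25.

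**Figure D2:**
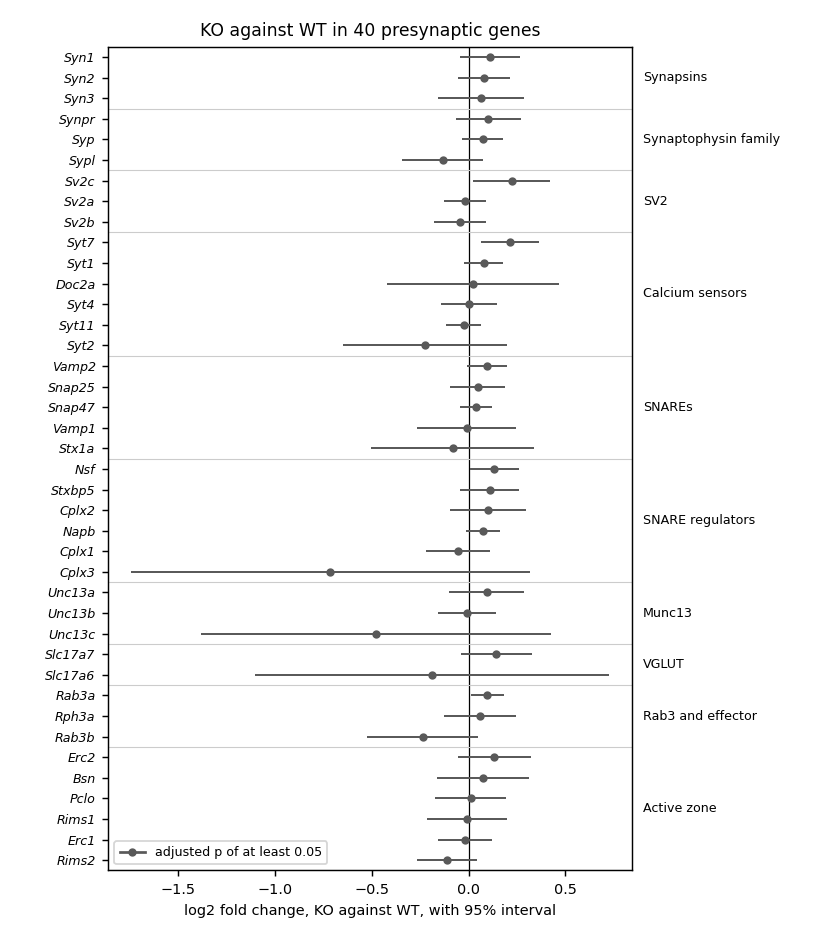
Log2 fold change of each of the 40 genes in USF-1 KO against WT mice (limma, points) with its 95% interval (bars), grouped by role. The estimates lie near 0 for most genes, the widest intervals belong to Cplx3, Unc13c and Slc17a6, and 36 of the 40 intervals include 0.

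The vesicle membrane was represented by synapsins, which tether vesicles in reserve, synaptophysins, the SV2 glycoproteins, vesicular glutamate transporters and the small GTPase Rab3 with its effector rabphilin. Syn1 (ENSMUSG00000037217, chrX:20860511-20921004, reverse strand, on GRCm38) ranged from 13630.1 to 17537 normalised counts in WT mice (median 15421) and from 14903 to 18722 in USF-1 KO mice (median 16201), with a log2 fold change of 0.11 (SE 0.069, adjusted p = 0.529 in limma). The KO median was higher, but the genotypes overlapped over most of their range. Syp ranged from 35499 to 38582 normalised counts in WT mice (median 37189.9) and from 35937 to 40652 in USF-1 KO mice (median 40389), with a log2 fold change of 0.073 (SE 0.046, adjusted p = 0.533 in limma), and it too overlapped, with 5 of 6 KO mice above the WT mean. Sv2a, the SV2 protein of most synapses, ranged from 11519.8 to 12477 normalised counts in WT mice (median 11891) and from 10681 to 12978 in USF-1 KO mice (median 11958), with a log2 fold change of −0.019 (SE 0.049, adjusted p = 0.905 in limma).

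Sv2c, an SV2 member that is prominent in the basal ganglia, had the largest positive estimate of the 40. It ranged from 739 to 940.2 normalised counts in WT mice (median 843) and from 777 to 1158 in USF-1 KO mice (median 986), with a log2 fold change of 0.22 (SE 0.090, adjusted p = 0.287 in limma), and in 5 of 6 KO mice it exceeded the WT mean while the lowest KO mouse lay among the WT mice. Slc17a7 ranged from 31487 to 40123 normalised counts in WT mice (median 36091) and from 32355 to 46423 in USF-1 KO mice (median 40215), with a log2 fold change of 0.14 (SE 0.082, adjusted p = 0.478 in limma). Slc17a6 encodes VGLUT2, the transporter typical of thalamic and other subcortical glutamatergic cells, and ranged from 210.1 to 991 normalised counts in WT mice (median 564) and from 200.2 to 1196 in USF-1 KO mice (median 459), with a log2 fold change of −0.19 (SE 0.42, adjusted p = 0.89 in limma). Its highest values belonged to WT 1 (991) and KO 1 (1196), the same mice that had the highest thalamus scores. Without WT 1 the fold change of Slc17a6 was 0.0023, and it was 0.047 without KO 4, so that its direction rested on single mice. Without both WT 1 and KO 1 it was −0.28.

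Rab3a, the main Rab3 GTPase of synaptic vesicles, was among the steadiest members. It ranged from 11788 to 12979 normalised counts in WT mice (median 11901) and from 12193 to 13230.2 in USF-1 KO mice (median 13095), with a log2 fold change of 0.10 (SE 0.037, adjusted p = 0.255 in limma), and 6 of 6 KO mice were above the WT mean, although WT 6 (12979) reached into the KO range. Rab3b, a Rab3 form with a more restricted neuronal use, pointed the other way: it ranged from 986 to 1515 normalised counts in WT mice (median 1192) and from 836 to 1345 in USF-1 KO mice (median 953), with a log2 fold change of −0.24 (SE 0.13, adjusted p = 0.464 in limma). The remaining vesicle proteins had estimates between −0.13 for Sypl, a broadly used relative of synaptophysin, and 0.10 for Synpr, synaptoporin of mossy fibre terminals.

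Calcium sensors translate calcium entry into fusion. Syt1, the fast sensor of forebrain synapses, ranged from 36164 to 39942 normalised counts in WT mice (median 37847) and from 37964 to 42352 in USF-1 KO mice (median 40066), with a log2 fold change of 0.078 (SE 0.045, adjusted p = 0.477 in limma), with 6 of 6 KO mice above the WT mean and overlapping ranges. Syt7 (ENSMUSG00000024743, chr19:10389090-10453180, forward strand), a slow, high-affinity sensor linked to facilitation and vesicle replenishment, ranged from 10579 to 13046 normalised counts in WT mice (median 11757) and from 11947 to 15465 in USF-1 KO mice (median 14197). Its log2 fold change of 0.21 (SE 0.068, adjusted p = 0.17 in limma) was the difference with the smallest adjusted p among the 40, and 6 of 6 KO mice were above the WT mean, but its lowest KO mouse was within the WT range. Across all settings tried the adjusted p of Syt7 was between 0.0629 and 0.78, never under the threshold of 0.05. Syt2, a fast sensor used by parvalbumin interneurons and by hindbrain neurons, ranged from 678 to 1528 normalised counts in WT mice (median 1221) and from 662 to 1134 in USF-1 KO mice (median 1019.7), with a log2 fold change of −0.22 (SE 0.20, adjusted p = 0.668 in limma), with 0 of 6 KO mice above the WT mean. The other synaptotagmins, Syt4 (0.0028) and Syt11 (−0.025), and the sensor Doc2a (0.022) had estimates near 0 on the log2 scale. Without WT 4 the estimate for Doc2a was 0.23 (adjusted p = 0.316 in limma).

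The SNARE proteins carry out fusion. Snap25 ranged from 48192 to 57474 normalised counts in WT mice (median 53156) and from 49516 to 61826 in USF-1 KO mice (median 54898), with a log2 fold change of 0.046 (SE 0.064, adjusted p = 0.805 in limma). Vamp2 ranged from 27631 to 31271 normalised counts in WT mice (median 28855) and from 28976 to 32180.2 in USF-1 KO mice (median 31219), with a log2 fold change of 0.093 (SE 0.046, adjusted p = 0.398 in limma). This pair dominates forebrain fusion, and neither gene passed the threshold. Stx1a, the plasma membrane syntaxin that completes the complex, ranged from 2179 to 5749 normalised counts in WT mice (median 2542) and from 2070.2 to 3035 in USF-1 KO mice (median 2789.8), with a log2 fold change of −0.082 (SE 0.19, adjusted p = 0.896 in limma). The single WT mouse WT 4 had 5749 while the other 5 WT mice had no more than 2819, which lies inside the KO range; without WT 4 the estimate turned to 0.12 (adjusted p = 0.561 in limma). Vamp1, a synaptobrevin prominent in brainstem, spinal cord and fast-spiking neurons (−0.011), and Snap47 (0.037), a SNAP-25 relative, were near 0.

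Regulators of the SNARE complex stood on both sides. Nsf, the ATPase that takes used complexes apart, ranged from 25176 to 30023 normalised counts in WT mice (median 27813) and from 28199.5 to 34184 in USF-1 KO mice (median 29511), with a log2 fold change of 0.13 (SE 0.057, adjusted p = 0.317 in limma), and 6 of 6 KO mice were above the WT mean. Cplx1, the complexin of fast synapses, ranged from 12615 to 15038 normalised counts in WT mice (median 13130.4) and from 11223 to 14870.3 in USF-1 KO mice (median 13080.4), with a log2 fold change of −0.055 (SE 0.075, adjusted p = 0.8 in limma). Cplx3, which is best known from retinal ribbon synapses and from the cortical subplate, had the most negative estimate of the 40, ranging from 74.8 to 462 normalised counts in WT mice (median 245) and from 60.5 to 314 in USF-1 KO mice (median 146), with a log2 fold change of −0.71 (SE 0.48, adjusted p = 0.557 in limma). Its mice were scattered in both genotypes, so that a log2 difference of that size was within the spread. Napb, the brain form of the adaptor SNAP (0.076), Cplx2 (0.10) and Stxbp5, the inhibitor tomosyn (0.11), lay above 0.

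Priming is the work of Munc13, and RIM, ELKS, bassoon and piccolo organise the active zone. Unc13a, the main Munc13 of forebrain glutamatergic terminals, ranged from 10517 to 14020.4 normalised counts in WT mice (median 12028) and from 10724 to 14561 in USF-1 KO mice (median 13481), with a log2 fold change of 0.094 (SE 0.088, adjusted p = 0.689 in limma). Unc13c ranged from 417 to 1374 normalised counts in WT mice (median 695) and from 239.7 to 1493 in USF-1 KO mice (median 449), with a log2 fold change of −0.48 (SE 0.42, adjusted p = 0.671 in limma), and its highest value of each genotype was again that of WT 1 (1374) and KO 1 (1493), the mice with the highest thalamus scores. Without these mice the log2 fold change of Unc13c was −0.60. Bsn, the giant scaffold bassoon, ranged from 12995 to 19885 normalised counts in WT mice (median 14161) and from 13052 to 18877 in USF-1 KO mice (median 15008), with a log2 fold change of 0.073 (SE 0.11, adjusted p = 0.817 in limma). WT 4 (19885) stood above the other WT mice, which had at most 14662, and without it the fold change of Bsn was 0.16 (adjusted p = 0.38 in limma).

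Rims1, a RIM that links Rab3 on vesicles to calcium channels, ranged from 4404 to 6719 normalised counts in WT mice (median 4649) and from 4356 to 5451 in USF-1 KO mice (median 4770.0), with a log2 fold change of −0.0092 (SE 0.094, adjusted p = 0.978 in limma), again with WT 4 (6719) above the rest. The estimate for Rims1 turned to 0.082 without WT 4, to 0.0069 without KO 1 and to 0.023 without KO 2. Erc2, the neuronal ELKS scaffold, ranged from 3898 to 4656 normalised counts in WT mice (median 4403) and from 3981 to 5795 in USF-1 KO mice (median 4689), with a log2 fold change of 0.13 (SE 0.085, adjusted p = 0.541 in limma). Pclo (0.0098), Rims2 (−0.11) and Erc1 (−0.017) had small estimates of either sign.

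**Figure D3:**
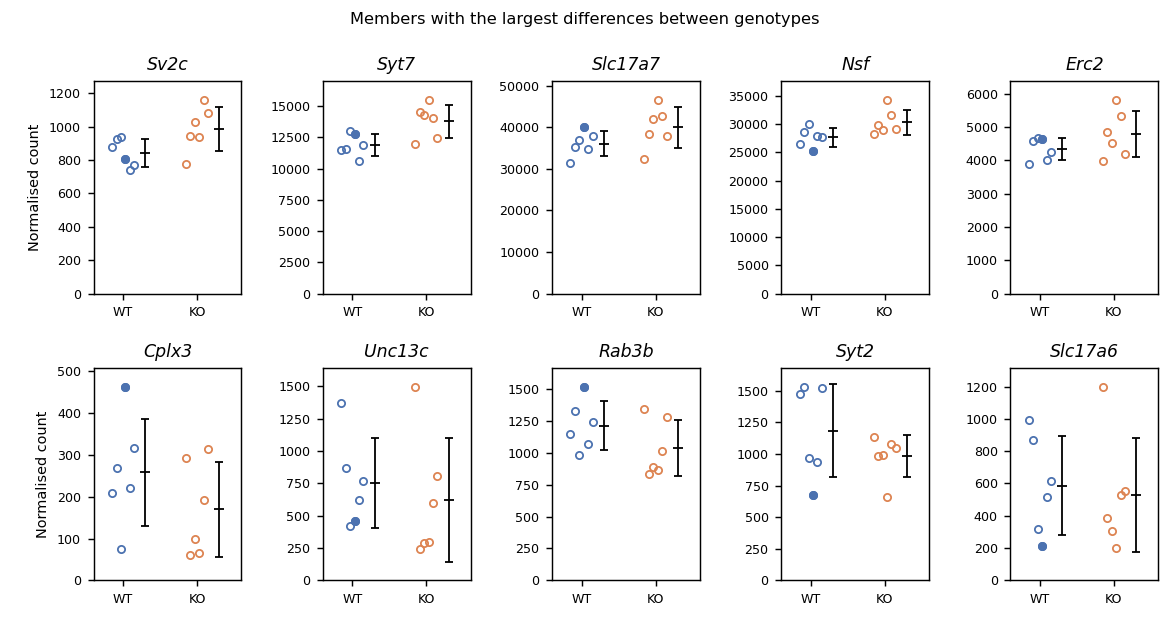
Normalised counts of the 5 members with the largest positive (upper row) and the 5 with the most negative (lower row) log2 fold change, 1 point per mouse (filled for WT 4), with the mean and SD of each genotype beside the points. WT and USF-1 KO mice overlap in all 10 panels.

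The members whose promoters are printed above had log2 fold changes of −0.010 for Unc13b, −0.044 for Sv2b, 0.13 for Nsf and −0.71 for Cplx3, of both signs and each short of the threshold.

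The other genes of the pathway were taken from a list of 69 presynaptic genes, which was divided into SNARE and fusion factors, vesicle membrane proteins, active zone proteins and endocytosis factors, and 67 of them were tested. In limma, edgeR and DESeq2 0 of these were called, with 11, 11 and 15 at an unadjusted p under 0.05. In limma that was 16.4% of the list, near the 13.5% of all genes. Of all 18221 genes, 2528 reached that level in edgeR and 2478 in DESeq2. Log2 estimates were positive for 48 and negative for 19, and their median was 0.053. The positive share was 71.6%, against 49.8% of all genes. The largest difference within each group was that of Syt9 (log2 fold change −0.66, SE 0.40, adjusted p = 0.505, limma), a sensor of limbic and striatal neurons, Syngr2 (log2 fold change −0.40, SE 0.12, adjusted p = 0.139), a broadly used vesicle protein, Rims3 (log2 fold change −0.23, SE 0.27, adjusted p = 0.757), a short RIM, and Dnm3 (log2 fold change −0.16, SE 0.081, adjusted p = 0.425), a dynamin that pinches vesicles off.

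All 18 genes of the oligodendrocyte list were lower in USF-1 KO mice. The median log2 difference was −0.68, and 18 passed an unadjusted p under 0.05, but 1 was called in limma: Ugt8a, which makes the myelin lipid galactosylceramide (log2 fold change −0.90, SE 0.16, adjusted p = 0.0167). DESeq2 called 17 of the 18. None of the 18 was at 0 in a mouse, and their summed level ran from 100734 to 218859 normalised counts in WT mice and from 87090.3 to 132071 in USF-1 KO mice. In bulk tissue, fewer cells of a type and less RNA per cell cannot be told apart. The score over the list ranged from −0.63 to −0.089 in USF-1 KO mice and from −0.46 to 0.68 in WT mice, with WT 4 as the only WT mouse inside the KO range. Dentate gyrus markers moved in the opposite direction, with 7 of 7 higher in USF-1 KO mice, 1 at an unadjusted p under 0.05 and 0 called. Their score overlapped, from −0.74 (WT 4) to 0.36 (WT 3) in WT mice and from −0.30 to 0.31 in USF-1 KO mice. Markers of oligodendrocyte precursors were lower for 8 of 8 genes (7 at an unadjusted p under 0.05, 0 called in limma and 5 by DESeq2), and those of microglia for 12 of 12 (8 at an unadjusted p under 0.05, 0 called in limma and 1 by DESeq2). The share of reads on mitochondrial genes was 4.12% to 4.87% in WT mice and 3.45% to 4.08% in USF-1 KO mice, without overlap. The part of these differences in the values of the members was not tested.

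To ask whether the release machinery rises where oligodendrocyte genes fall, each gene was fitted on the oligodendrocyte score of the mouse with genotype in the same model, so that mice were compared within genotypes. A slope gives the log2 change of a gene per log2 unit of the score. Of the 40 members, 25 had a negative slope and 15 a positive one, with a median of −0.079 against −0.0024 over all genes tested. In limma 4 were called (10%), against 2.74% of the 18203 genes tested. They did not move alike: Bsn (slope −0.53, SE 0.10, adjusted p = 0.0111) and Syn3 (slope −0.46, SE 0.11, adjusted p = 0.0412) were higher where oligodendrocyte genes were lower, while Syt2 (slope 0.98, SE 0.17, adjusted p = 0.00979) and Slc17a6 (slope 1.88, SE 0.46, adjusted p = 0.0498) were higher where oligodendrocyte genes were higher (all limma). Over all genes, 1.40% were called with a negative and 1.33% with a positive slope. In the alternative settings, Bsn kept its call in 21 and Syt2 in 22, but Syn3 in 10 and Slc17a6 in 7. The call was lost with the direction kept in 3, 3, 14 and 18 settings, and 1 more turned Bsn and Syn3. In edgeR the adjusted p of the slope of Slc17a6 was 0.0566. Bsn (ENSMUSG00000032589, chr9:108096022-108190384, reverse strand) was highest in WT 4 (19885). Syn3 (ENSMUSG00000059602, chr10:86055125-86498896, reverse strand) ranged from 179 to 270.3 normalised counts in WT mice (median 213) and from 201 to 251 in USF-1 KO mice (median 222), and its highest value was that of WT 4 (270.3). Syt2 (ENSMUSG00000026452, chr1:134646677-134762593, forward strand) and Slc17a6 (ENSMUSG00000030500, chr7:51622006-51671119, forward strand) were lowest in KO 4 (662 and 200.2) and in WT 4 (678 and 210.1). At an unadjusted p under 0.05 were 17 members, 11 of them negative, against 17.8% of all genes, and 9.83% of all genes with a negative slope.

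**Figure D4:**
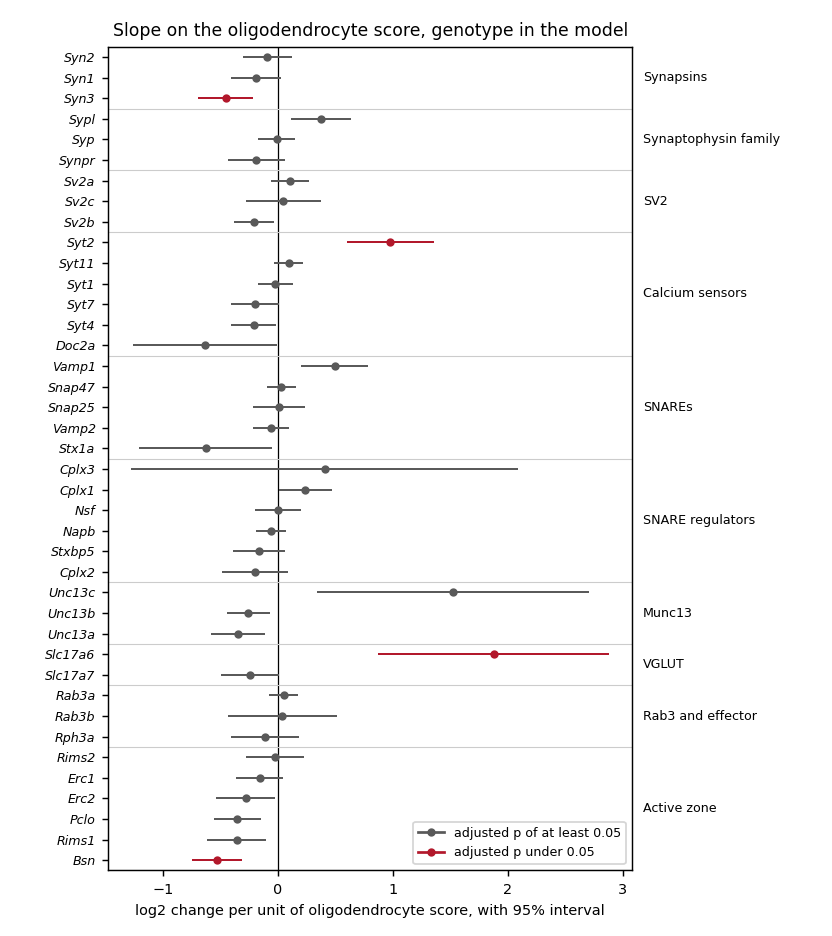
Slope of each of the 40 genes on the oligodendrocyte score, as log2 change per unit of score with its 95% interval, from the model that holds genotype. Bsn and Syn3 lie on the negative side and Syt2 and Slc17a6 on the positive side of 0, and the 6 active zone genes have negative estimates, of which those of Rims1 and Rims2 turned positive without WT 4 and that of Rims2 under quantile normalisation.

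By role, the 6 active zone scaffolds and the 3 synapsins had negative slopes with all 12 mice. Bsn (−0.53), Rims1 (−0.36), Pclo (−0.35), Erc2 (−0.28), Erc1 (−0.16) and Rims2 (−0.029) were negative, 4 of them at an unadjusted p under 0.05 and 1 called. Without WT 4 the slopes of Rims1 (0.018) and Rims2 (0.40) were positive, and under quantile normalisation those of Rims2 (0.011) and Syn2 (0.043). Of the synapsins, Syn3 was called. Among the abundant members, Snap25 (0.0082), Vamp2 (−0.059), Syp (−0.012), Syt1 (−0.025) and Nsf (0.0024) had slopes near 0 with all 12 mice. Others did not, such as Slc17a7 (−0.24), Cplx2 (−0.20) and Cplx1 (0.24), none of them called. Without WT 4 the slope of Nsf was −0.29 (limma adjusted p = 0.185), that of Vamp2 0.079 and that of Syp 0.084. Snap25 (0.032) and Syt1 (0.031) then stayed near 0. The most negative estimates of all belonged to Doc2a, a calcium sensor of the Doc2 family (slope −0.64, SE 0.29, adjusted p = 0.263), and Stx1a (slope −0.63, SE 0.26, adjusted p = 0.233), and the most positive ones to Slc17a6 and Unc13c (slope 1.53, SE 0.54, adjusted p = 0.16), none of these but Slc17a6 called in limma. In the other presynaptic genes 48 of 67 slopes were negative and 1 was called, Cacna1b (slope −0.38, SE 0.054, adjusted p = 0.00215), a subunit of N-type calcium channels.

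The number of calls on these slopes depended on single mice, most of all on WT 4. Doc2a ranged from 326 to 887 normalised counts in WT mice (median 379) and from 347 to 547 in USF-1 KO mice (median 433), and it reached 887 normalised counts and Stx1a 5749 in this mouse, against at most 413 and 2819 in the other WT mice. Without WT 4, the slope of Doc2a turned to 0.57 and that of Stx1a to 0.53, 0 members were called (1.25% of all genes), 20 of the 40 slopes were negative, and the median was 0.0036. At an unadjusted p under 0.05 were then 20 members, against 17 with all mice. This is no result about the members, since the share of all genes at that level was not counted without WT 4. Bsn (−0.51), Syn3 (−0.53), Syt2 (1.07) and Slc17a6 (2.34) kept their direction without it, none of them past the threshold (limma adjusted p = 0.12, 0.154, 0.083 and 0.134). Nearest the threshold without WT 4 were Synpr (slope −0.57, against −0.19 with all mice) and Cplx3 (3.40, against 0.40), with limma adjusted p = 0.054 and 0.0549. Unc13c was then at 2.93 and Rab3b at 0.85, against 0.038 for Rab3b with all mice (limma adjusted p = 0.079 and 0.080). Leaving out WT 1, KO 4, KO 5 or KO 6 in turn left 2 members called each time, and the share of all genes called was not counted for these fits. In the comparison of genotypes, leaving out WT 4 gave positive estimates for 27 members, a median of 0.083 and 0 called, with Syt2 at −0.37 and Slc17a6 at −0.44, while 516 of all genes were then called (2.83%).

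Thalamus markers moved with part of this pattern. All 7 tested genes of that list had positive slopes on the oligodendrocyte score, with a median of 1.26. Their summed level ran from 2697 to 7757 normalised counts in WT mice and from 2832 to 9087 in USF-1 KO mice, and Gbx2 was at 0 in 5 mice. With the thalamus score as a further covariate 0 members were called, and the slope of Slc17a6 was 1.03 in place of 1.88, while Bsn (−0.49) and Syt2 (1.01) changed less (limma adjusted p = 0.313, 0.1 and 0.0647). The share of all genes called in that fit was not counted. Genes with long exonic sequence tended to have lower slopes, with a Spearman rho of −0.18 across 18180 genes and −0.24 across the 40 members, whose median exon length is 7206.5 bases against 3805.5 for all genes tested. These correlations describe genes of the same 12 libraries, and their part in the slopes was not tested.

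**Figure D5:**
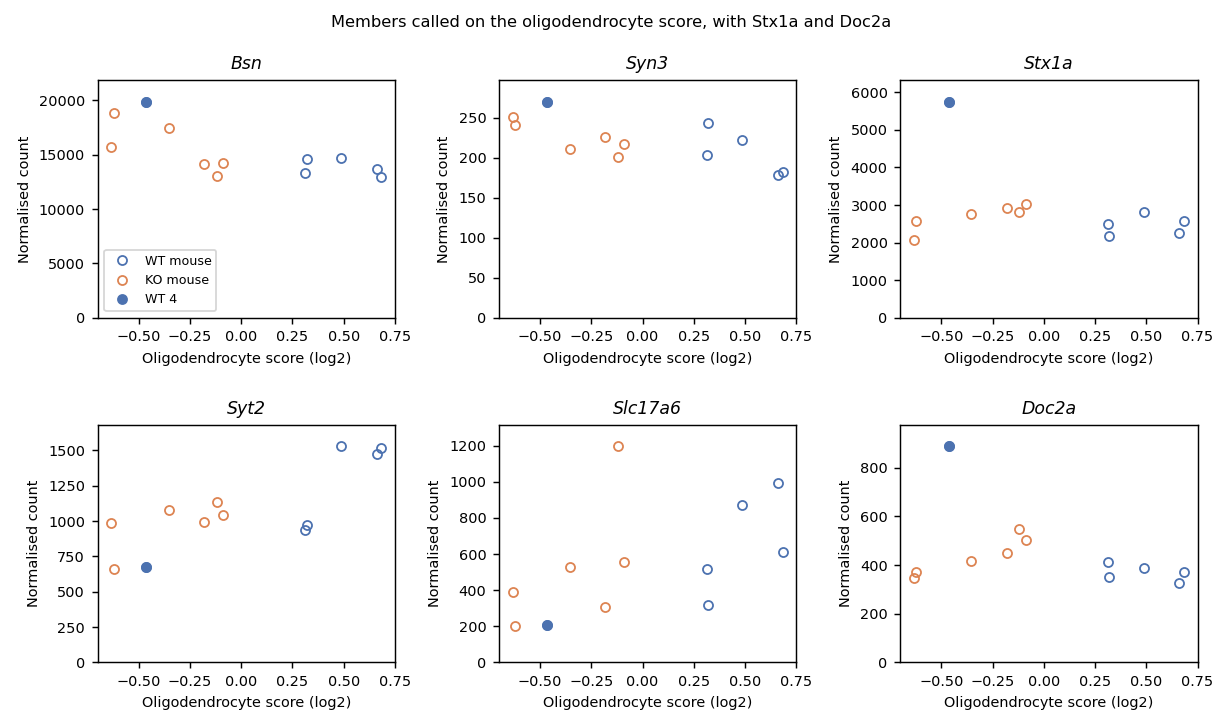
Normalised counts of the 4 called members and of Stx1a and Doc2a against the oligodendrocyte score of each mouse (log2), 1 point per mouse, with genotype shown by colour and WT 4 filled. Bsn and Syn3 fall and Syt2 and Slc17a6 rise along the score, and WT 4, at a score of −0.46, lies above the other 11 mice for Stx1a and Doc2a.

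Sex entered a fit of its own, since the sexes were unequal between the genotypes. In limma with genotype and sex, 0 of 40 members differed between females and males, against 0.0549% of all genes, and 0 reached an unadjusted p under 0.05 (6.45% of all genes); edgeR likewise gave 0 at either level. For the interaction of genotype and sex, 0 of 40 members were called in limma and in edgeR, where the share over all genes was 0 in limma, and 1 member was at an unadjusted p under 0.05 in each tool, in limma Sv2c (3.45% of all genes reached that level; interaction on the log2 scale −0.53 ± 0.14 (SE), adjusted p = 1 in limma). The interaction had 2 mice in its smallest groups, WT males and KO females, and estimates were negative for 30 of the 40 members, with a median of −0.082 against 0.0072 for all genes. With sex as a covariate in the comparison of genotypes, 0 members were called.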

How the data were processed

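RNA-seq libraries were made from the hippocampi of 6 WT mice and 6 mice without USF-1. The authors deposited 1 signal per gene and library, a normalised count obtained with DESeq2 by dividing reads by the library's size factor; the submitters' processing notes name STAR 2.5.0a, edgeR 3.22.2 and mm10, and whether counting used strand is not given in the sources used here. Dividing a library's values by their smallest step gave back whole reads for 100% of them (tolerance 0.001 reads). The files' coordinates equalled GENCODE M21 in 98.8% of rows, and exon lengths came from it. No library repeated another (chi-square of their counts at least 4.54 per degree of freedom). Nothing in the labels pools mice.

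The genotypes were compared by limma 3.58.1 (R 4.3.3), run with its trend option on normalised counts after adding 1 and taking log2. Genes whose mean reached 10 were tested, two-sided, with Benjamini-Hochberg adjustment over all genes tested and a threshold of 0.05. Intervals are 95% intervals. Fold changes are on that scale, which understates the change of low genes. A score averages a list's log2 values after each gene's mean was subtracted. Alternatives were DESeq2 1.42.0 and edgeR 4.0.16 (TMM, quasi-likelihood test) on the recovered reads, pseudocounts of 0.5 and 5, a minimum mean of 50 or none at all, the same total, quantile normalisation, sex or the oligodendrocyte score as a covariate, no trend, a threshold of 0.1, and each mouse left out. Sex was that of the labels. The steps were tested on simulated data. Figures were made in matplotlib 3.10.9 with Python 3.11.15.

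The 40 members and the lists of further presynaptic genes and cell markers were chosen with earlier results of these data known. Named were members past the threshold, those without overlap, the 5 largest positive and negative fold changes and 1 core gene of each role. For the slopes, the 3 lowest and 3 highest members were named as well. Of the other presynaptic genes, called genes and the largest fold change of each group were named. Called genes of marker lists other than oligodendrocytes were not named. In limma these were 1 CA3 marker, higher in USF-1 KO mice, and 3 precursor and 2 general neuronal markers on the slope. Other members are named with their estimate to account for all 40.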

Additional observations from a re-analysis of the deposited data

Results flagged for a closer look

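Values that stood apart from the other mice of their genotype were sought in 80 groups, the 40 members in each genotype, by the gap of the highest or lowest mouse to its neighbour as a share of the range (Dixon's 95% value for 6 mice). The groups share the same libraries and the share of all genes marked was not counted, so the number marked is no result about the members. If the groups were separate draws, chance would mark about 1 in 20, that is 4 of 80, and 10 were marked. Of these, 6 belonged to WT 4, where Stx1a was at 5749 normalised counts, Bsn at 19885, Rims1 at 6719, Syt4 at 4647, Rims2 at 2352 and Doc2a at 887, each the highest WT value. The same mouse had the lowest oligodendrocyte score among WT mice (−0.46), and the part of this in the 6 values was not tested.

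In single mice of the other groups, Stxbp5 was high in WT 3 (3637 normalised counts), Rab3a was high in WT 6 (12979), Slc17a6 was high in KO 1 (1196), and Syt2 was low in KO 4 (662). KO 1 was also the mouse with the highest thalamus score (1.24).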

How the results depend on the processing

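Whether more mice or reads would give more calls was not tested. The member with the fewest reads, Cplx3, had 53 in the library with the lowest count. The count of 0 members called between the genotypes, for sex and for the interaction was the same under every alternative run. The median of the members ran from −0.0099 to 0.083. With the oligodendrocyte score as a covariate the log2 fold change turned for Unc13c (0.54), Syt2 (0.43), Slc17a6 (1.06), Erc2 (−0.055), Slc17a7 (−0.019), Syn1 (−0.020), Sv2a (0.050), Cplx1 (0.10), Unc13a (−0.14) and Bsn (−0.28), none of them called. With each mouse left out it ran from −0.47 to 0.047 for Slc17a6, from −0.16 to 0.12 for Stx1a, from −0.042 to 0.082 for Rims1 and from −0.048 to 0.0085 for Sv2a; without WT mice 1 and 5, chosen after seeing the data for their choroid plexus markers, Slc17a6 was at 0.051. Of 572 alternative fold changes of named members, 553 kept their direction and 19 turned. The count of 553 includes settings that cannot change a fold change: the threshold of 0.1, the fit without trend and the other limits on the mean.

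Of 175 alternative slopes of named members, 131 kept their direction and any call, 38 kept the direction but lost the call, and 6 turned. The 4 members called on the oligodendrocyte score became 2 with no limit on the mean, without the genotype term, without WT mice 1 and 5, and without WT 1 and KO 1, and 0 with the thalamus score as a further covariate, the last 3 of these 5 settings chosen after seeing the data. With the astrocyte score in place of the oligodendrocyte score 0 were called, and the slopes of Doc2a (2.08), Stx1a (2.07), Bsn (0.15) and Syn3 (0.18) were positive. With each mouse left out the count ran from 0 (without WT 4) to 5, with 2 without WT 1, KO 4, KO 5 or KO 6, and the slope of Doc2a ran from −0.81 to 0.57 and that of Stx1a from −0.82 to 0.53. The share of all genes called on the slope was counted only for the main fit and without WT 4. The counts under the other settings are therefore no result about the members. The causes were not tested. No paired analysis was possible because the labels give no numbers that mice of the genotypes share.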

Other observations

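The members that were counted most deeply leaned to one side, in a split chosen after the values were seen. Of the 19 members with a WT mean of at least 10000 normalised counts, 15 had a higher estimate in USF-1 KO mice, against 9 of the other 21, and 0 of either were called in limma. The share of higher estimates among all genes with such counts was not determined, so the split is no result about the members. The median log2 fold change over all members varied with the normalisation. It was 0.042 in the main fit, 0.015 under quantile normalisation and 0.045 with the same total.

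The forms of 3 pairs that carry out the same step were weighed against each other per length of exon. Slc17a6 made up 0.520% to 3.05% of the vesicular glutamate transporter RNA of Slc17a6 and Slc17a7 in WT mice and 0.429% to 3.56% in USF-1 KO mice. Vamp1 made up 3.02% to 5.45% of Vamp1 and Vamp2 in WT mice and 3.79% to 4.50% in USF-1 KO mice. Syt2 made up 1.86% to 4.18% of Syt2 and Syt1 in WT mice and 1.68% to 2.94% in USF-1 KO mice. The genotypes overlapped in each of the 3 shares.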
